A study of Mus musculus with 24 samples.

Results

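Collagen genes were taken as every gene in the deposited tables whose name is Col, a type number, the letter a and a chain number, which gave 44 of 43629 gene identifiers. Their mRNA was measured in livers of old and young mice, and 11 of the 44 averaged at least 1 TPM, a transcript's length-corrected share of its library, and could be tested, among 12261 tested genes in all. The mice were wild type on the C57BL/6 inbred background. Old mice were about 19 months of age and young mice about 4 months. Livers were taken every 4 h over 2 days, at 6 zeitgeber times (ZT, the hours since lights came on), namely ZT2, 6, 10, 14, 18 and 22. Each age had 2 libraries at each time, which gave 12 old and 12 young libraries. The labels do not say whether replicates came from separate animals, and they give no sex. The p-values therefore reflect only the spread among these libraries, which may be technical.

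Collagens are trimers of alpha chains wound into a triple helix, and a type may be built from identical or different chains. Fibrillar collagens such as types I, III and V form the cables of the interstitial matrix, whereas type IV forms the sheet of basement membranes together with laminins and nidogens. In liver, stellate cells and portal fibroblasts are known as the main makers of fibrillar collagen, and sinusoidal endothelium lies on a sparse matrix that contains type IV.

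Libraries held 8.70 to 13.7 M reads (M, 1000000), with 8.70 to 12.3 M in old and 9.68 to 13.7 M in young. Values below are scaled TPM, that is, deposited TPM divided by a scaling factor per library, and they are corrected for transcript length. Levels are set side by side between genes on this scale alone, and the deposited coverage, mean reads per base, gives other ratios for some pairs: Col6a1 was 1.99 times Col6a2 by TPM and 4.05 times by coverage, and Col3a1 17.6 times Col1a1 by TPM and 8.73 times by coverage. The liver label matched its markers: the 5 hepatocyte markers summed to 87461 ± 9369 scaled TPM in old and 92367 ± 9887 in young (SD, n = 12 each). The 14 stellate cell markers summed to 107 ± 9.98 in old and 108 ± 14.7 in young, and the 10 sinusoidal endothelium markers to 195 ± 20.8 in old and 205 ± 18.7 in young. Some libraries stood apart. Both old ZT14 libraries were low in mitochondrially encoded RNA, with 3.42% in replicate 1 and 8.74% in replicate 2, against 10.7% to 17.1% in all the others, and young ZT18 replicate 2 held 3827 scaled TPM of 9 pancreatic acinar markers, against at most 62.8 in any other library. Collagen results that could rest on them are given without old ZT14 replicate 1 and young ZT18 replicate 2, the pair farthest from the rest, or without these and old ZT14 replicate 2, called all 3. Genes of the other lists are given with all libraries only.

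Liver collagen mRNA was mostly that of type XVIII, while the chains of type I were low. Col18a1 encodes the alpha 1 chain of type XVIII, a basement membrane collagen whose C-terminal fragment is endostatin. It lies on chromosome 10 (77052178 to 77166548, minus strand, GRCm38) and averaged 143 ± 26.4 scaled TPM in old livers and 127 ± 32.2 in young livers. That was 73.3% of all collagen TPM, and 76.3% of summed collagen coverage. The second level was that of Col14a1, a fibril-associated collagen that coats type I fibrils (chromosome 15, 55307750 to 55520803, plus strand), with 13.7 ± 1.92 in old and 12.9 ± 3.42 in young. All 44 genes together summed to 193 ± 27.4 in old and 176 ± 38.3 in young.

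By TPM, fibrillar collagens were led by type III and type XXVII. By the deposited coverage Col3a1 was at 1.19, Col27a1 at 0.781 and Col5a3 close to it at 0.746. The 11 fibrillar genes summed to 21.1 ± 5.84 scaled TPM in old and 20.1 ± 3.76 in young. Col3a1, the only chain of type III and a main component of reticular fibres (chromosome 1, 45311538 to 45349706, plus strand), was at 8.03 ± 2.50 in old and 8.87 ± 3.51 in young. Col27a1, a fibrillar collagen best known from cartilage (chromosome 4, 63214004 to 63334991, plus strand), was at 6.74 ± 5.92 in old and 5.57 ± 3.53 in young, and had the widest spread relative to its mean among the 11 tested genes in old. Col5a3, a chain of type V, which controls fibril width (chromosome 9, 20770050 to 20815067, minus strand), was at 2.65 ± 1.64 in old and 2.13 ± 1.04 in young. Col1a2, the alpha 2 chain of type I (chromosome 6, 4504814 to 4541543, plus strand), was at 1.84 ± 0.831 in old and 2.36 ± 1.09 in young. Its partner Col1a1 stayed below the 1 TPM filter at 0.448 ± 0.408 in old and 0.511 ± 0.261 in young, about 17.9 reads per library. Type I is made of 2 Col1a1 chains for each Col1a2 chain in its usual form, but Col1a1 TPM was 0.228 times that of Col1a2, and by the deposited coverage 0.529 times. Since these ratios of per-length values differ by more than 1.5 times, the balance between the type I chains is uncertain in these files.

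Type IV mRNA came almost wholly from the chain pair of ordinary basement membranes. Col4a1 (chromosome 8, 11198423 to 11312826, minus strand) averaged 4.38 ± 1.35 scaled TPM in old and 5.48 ± 2.09 in young. Col4a2 (chromosome 8, 11312805 to 11449287, plus strand) averaged 2.21 ± 1.54 in old and 2.69 ± 1.45 in young. The other 4 type IV chains, Col4a3 to Col4a6, which build the specialised basement membranes of kidney and other sites, each averaged under 0.1 TPM. Among the remaining types, Col13a1, a transmembrane collagen of cell junctions (chromosome 10, 61838236 to 61979108, minus strand), was at 2.61 ± 0.999 in old and 2.40 ± 1.29 in young. Col6a1, a chain of the type VI beaded filaments (chromosome 10, 76708792 to 76726168, minus strand), was at 1.58 ± 0.386 in old and 1.34 ± 0.420 in young. Col15a1, the relative of Col18a1 in the multiplexin class (chromosome 4, 47208161 to 47313167, plus strand), was at 1.34 ± 0.482 in old and 1.01 ± 0.726 in young, with a mean of only 13.9 reads per library.

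**Figure D1:**
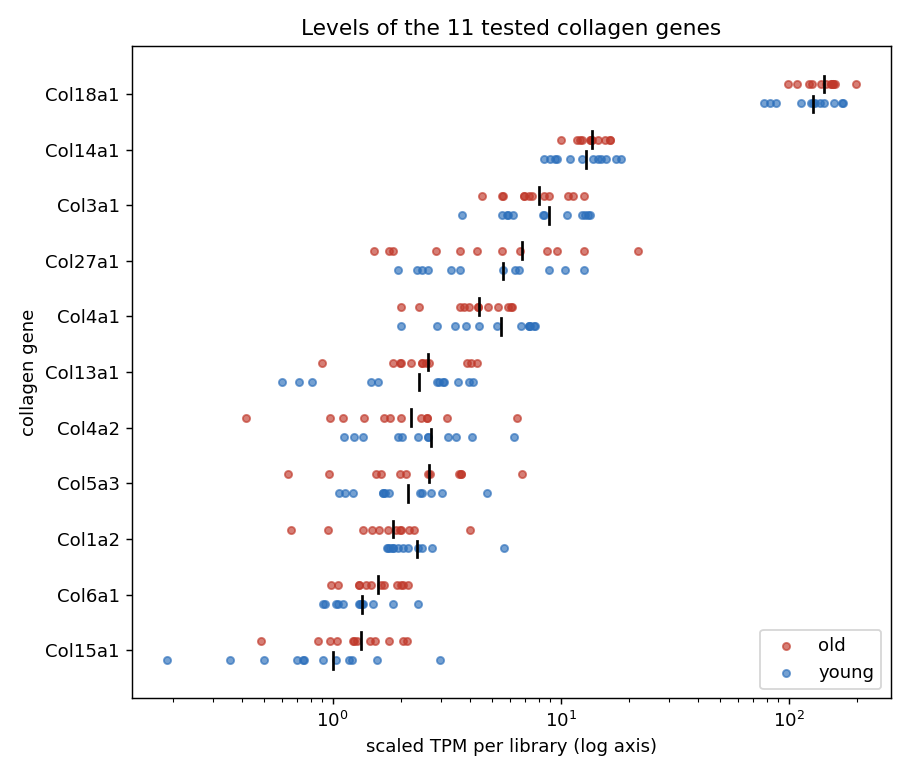
Level of each of the 11 tested collagen genes in every library, in scaled TPM on a log axis. Red points are the 12 old libraries, blue points below them the 12 young libraries, and black ticks the means of each age. Col18a1 lies above all the others, with 99.2 to 198 in old and 78.3 to 173 in young, and the ages overlap for every gene.

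The other 33 collagen genes were below the filter. Col15a1 was the lowest inside it, at 1.21 deposited TPM, and Col6a3 the highest outside it, at 0.848. Of the 33, 10 were listed at 0 in all 24 libraries: Col2a1, Col9a1, Col9a2, Col9a3, Col10a1, Col11a1, Col19a1, Col26a1, Col28a1 and Col6a4. Several of these are collagens of cartilage, where types II, IX, X and XI are known to be abundant. A further 14 were above 0 but under 0.1 TPM on average, and 9 lay between 0.1 and 1 TPM. Of these, 5 passed 1 scaled TPM in at least 1 library: Col1a1, Col5a2, Col6a2, Col6a3 and Col16a1. Col5a2, the alpha 2 chain of type V, was uneven in old livers, with 5.65 and 1.04 at ZT10 and 0 and 2.68 at ZT14, against 0.189 and 0.200 at ZT10 and 0.292 and 0.671 at ZT14 in young livers. Col6a2 and Col6a3, the partners of Col6a1 in type VI, averaged 0.728 ± 0.163 and 0.935 ± 0.445 in old, against 0.741 ± 0.230 and 0.734 ± 0.448 in young.

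The clearest variation in collagen mRNA was over the day. A cosine of 24 h was fitted to each age with limma on log2(scaled TPM + 0.5), and its mean over both ages was tested. The size of a rhythm is the log2 difference between fitted peak and trough. By limma's F test with Benjamini-Hochberg adjustment over all genes tested, 5 of 11 collagen genes were rhythmic, which is 45.5%, against 23.9% of all genes tested. They were Col27a1, Col4a2, Col5a3, Col4a1 and Col6a1. The median rhythm size was log2 0.54 over the 11 collagen genes and 0.36 over all genes tested. A size is never below 0, so spread among libraries alone raises it, and the 2 sets were not matched for spread. The collagen median was the value of Col13a1, which did not pass (SE 0.332, adjusted p = 0.456 by limma). Col27a1 peaked between ZT12 and ZT24, and the other 4 had fitted peaks between ZT0 and ZT12. Of all genes tested, 11.9% were rhythmic with a peak between ZT0 and ZT12, and 12.1% with a peak between ZT12 and ZT24. Without all 3 libraries that stood apart the same 5 genes passed.

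Col27a1 had the largest rhythm of the 11 genes. In old livers it was at 3.63 and 2.85 scaled TPM at ZT2, 1.83 and 1.51 at ZT6, 4.28 and 1.77 at ZT10, 21.9 and 8.71 at ZT14, 12.7 and 9.60 at ZT18, and 5.54 and 6.60 at ZT22. In young livers it was at 3.62 and 2.63 at ZT2, 3.31 and 1.94 at ZT6, 2.35 and 2.46 at ZT10, 10.4 and 6.59 at ZT14, 8.91 and 12.6 at ZT18, and 6.32 and 5.60 at ZT22. The 8 libraries of ZT14 and ZT18 were the highest, except that young ZT14 replicate 2 lay just below old ZT22 replicate 2. Behind these values stood 45.6 to 860 read equivalents per library. The fitted size was log2 2.35 (SE 0.251), a 5.08-fold range, with a peak at ZT17.5 ± 0.409 h (SE) and an adjusted p of 2.56e-06 by limma. Old ZT14 replicate 1, the library with the least mitochondrial RNA, held the highest value, and old ZT14 was the highest time of that age by mean. Without old ZT14 replicate 1 and young ZT18 replicate 2 the size was 2.13 with an adjusted p of 3.01e-06, and without all 3 libraries that stood apart it was 2.09 (adjusted p = 1.08e-05), with sizes of 2.26 in old (adjusted p = 0.000533) and 1.92 in young (adjusted p = 0.0021). The rhythm passed in each age on its own, with sizes of 2.65 in old (adjusted p = 0.00015) and 2.06 in young (adjusted p = 0.00181).

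The RefSeq promoter window of Col27a1, 250 bases before to 50 after its start site, is printed because this gene carried the largest rhythm. It covers chr4:63215162-63215461 on the plus strand of GRCm38.p6, inside the gene's span in the files, and capitals mark the motifs found in it, here GC boxes (GGGCGG on either strand).
Col27a1: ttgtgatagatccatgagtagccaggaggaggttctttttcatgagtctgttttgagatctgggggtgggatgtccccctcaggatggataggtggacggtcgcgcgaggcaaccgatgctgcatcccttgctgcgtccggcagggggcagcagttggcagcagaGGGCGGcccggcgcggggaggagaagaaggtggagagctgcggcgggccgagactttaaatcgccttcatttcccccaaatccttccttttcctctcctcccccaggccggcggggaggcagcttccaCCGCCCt
The E-box of clock proteins (CACGTG), the D-box (TTATGTAA) and a ROR element core (TAGGTCA), motifs bound by known regulators of daily transcription, were searched on both strands in the windows of the 5 rhythmic collagen genes. None of the 3 had a match in any of the 5 windows. Among 32851 RefSeq promoter windows of the same length, 7.15% held the E-box, 0.938% the D-box and 2.61% the ROR core. No match says only that these letters are not in these windows.

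Averaged over both ages, Col4a1 was highest at ZT2, Col4a2 at ZT6, and both were lowest at ZT18. In young livers alone both had their lowest mean at ZT14, with 3.19 scaled TPM for Col4a1 and 1.53 for Col4a2, against 4.06 and 1.63 at ZT18. Col4a1 was in old livers at 6.06 and 4.79 scaled TPM at ZT2, 3.75 and 5.90 at ZT6, 6.11 and 4.33 at ZT10, 4.33 and 5.33 at ZT14, 2.0 and 3.61 at ZT18, and 2.38 and 3.97 at ZT22. In young livers Col4a1 was at 7.61 and 7.30 at ZT2, 7.24 and 7.36 at ZT6, 7.75 and 3.85 at ZT10, 2.0 and 4.38 at ZT14, 2.88 and 5.24 at ZT18, and 3.44 and 6.67 at ZT22. Libraries of ZT2 averaged 6.44 and those of ZT18 averaged 3.43, with overlap between the times. The fitted size was log2 0.88 (SE 0.224), a 1.84-fold range, with a peak at ZT5.36 ± 0.969 h and an adjusted p of 0.0179 by limma.

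Col4a2 was in old livers at 2.59 and 3.18 scaled TPM at ZT2, 6.41 and 2.44 at ZT6, 2.0 and 2.59 at ZT10, 1.78 and 1.38 at ZT14, 1.11 and 0.416 at ZT18, and 0.977 and 1.67 at ZT22. In young livers Col4a2 was at 2.62 and 6.26 at ZT2, 2.63 and 3.47 at ZT6, 4.09 and 2.38 at ZT10, 1.12 and 1.94 at ZT14, 1.24 and 2.02 at ZT18, and 1.36 and 3.20 at ZT22. All 4 libraries of ZT6 were above all 4 of ZT18, on averages of 94.0 read equivalents per library for Col4a2 and 214 for Col4a1. The fitted size was log2 1.40 (SE 0.252), a 2.65-fold range, with a peak at ZT5.37 ± 0.685 h and an adjusted p of 0.00102 by limma. Without old ZT14 replicate 1 and young ZT18 replicate 2, the sizes were 1.02 for Col4a1 (adjusted p = 0.0128) and 1.53 for Col4a2 (adjusted p = 0.00152), and without all 3 libraries 1.11 (adjusted p = 0.0104) and 1.57 (adjusted p = 0.00257). Summed type IV mRNA averaged 10.3 scaled TPM at ZT2, 10.05 at ZT6, 8.49 at ZT10, 5.77 at ZT14, 4.81 at ZT18 and 6.07 at ZT22. Summed markers of sinusoidal endothelium at these times averaged 192, 208, 189, 184, 205 and 223, and summed stellate cell markers 103, 109, 112, 104, 104 and 114. Clec4g made up much of the endothelial sum, at 87.5, 90.5, 75.1, 81.1, 98.7 and 108. Single endothelial markers differed: the rhythmic Oit3 had its fitted peak at ZT3.88 and the rhythmic Gpr182 at ZT19.8. In bulk liver, fewer cells of a type and less RNA per cell cannot be told apart.

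**Figure D2:**
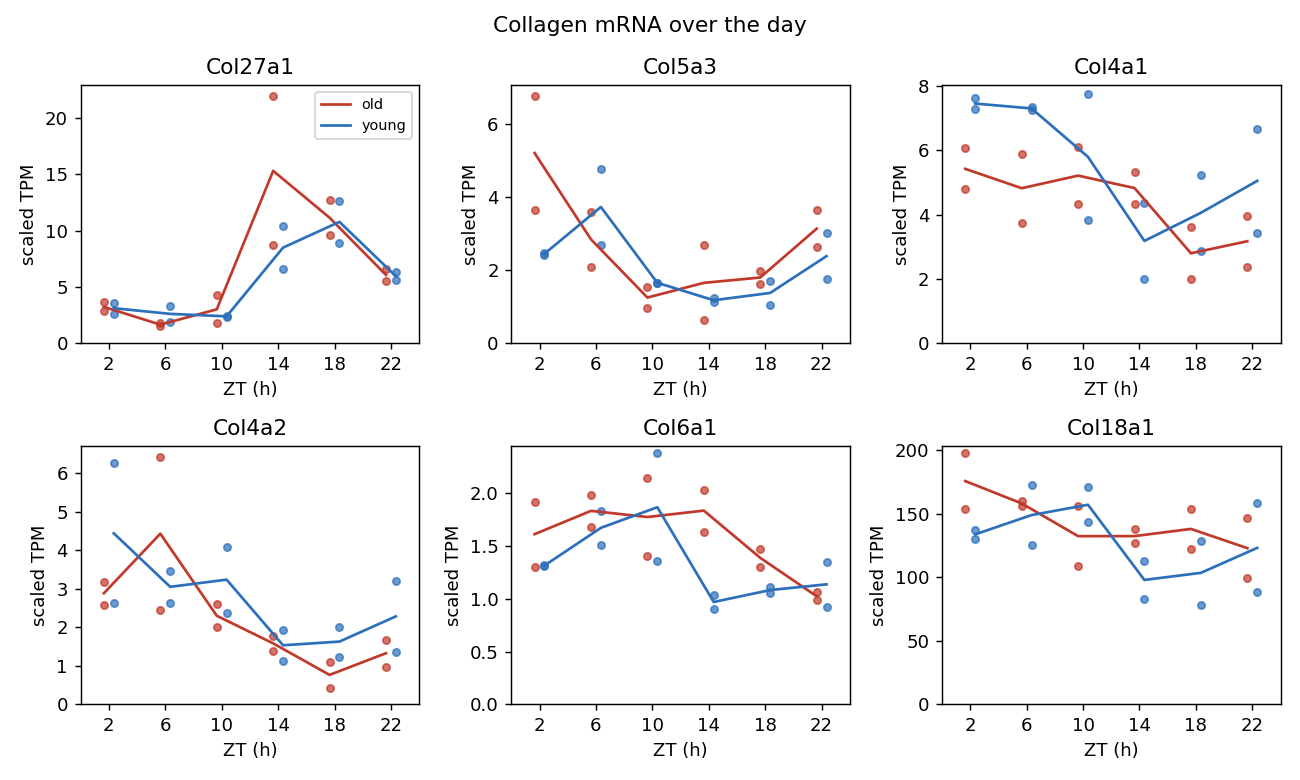
Scaled TPM of the 5 rhythmic collagen genes and of Col18a1 at the 6 times, with 1 point per library, red for old and blue for young, shifted sideways for clarity, and lines through the mean of each age's 2 libraries. Col27a1 is high at ZT14 and ZT18 in both ages, whereas Col4a1 and Col4a2 are lowest at ZT18 over both ages.

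The type IV pair is printed because both genes start from the same stretch of DNA on opposite strands and moved together. RefSeq puts the Col4a1 start at chromosome 8, position 11312826 and the Col4a2 start at 11312805, so their promoter windows share 78 bases (11312777 to 11312854). The Col4a1 window is chr8:11312777-11313076 on the minus strand and the Col4a2 window chr8:11312555-11312854 on the plus strand of GRCm38.p6, and capitals mark CCAAT boxes (CCAAT) and GC boxes (GGGCGG) on either strand.
Col4a1: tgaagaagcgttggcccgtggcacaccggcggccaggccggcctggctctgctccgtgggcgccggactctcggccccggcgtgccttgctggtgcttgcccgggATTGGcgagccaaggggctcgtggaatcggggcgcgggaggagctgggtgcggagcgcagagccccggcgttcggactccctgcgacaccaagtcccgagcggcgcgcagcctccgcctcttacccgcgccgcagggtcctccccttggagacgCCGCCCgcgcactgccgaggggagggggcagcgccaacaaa
Col4a2: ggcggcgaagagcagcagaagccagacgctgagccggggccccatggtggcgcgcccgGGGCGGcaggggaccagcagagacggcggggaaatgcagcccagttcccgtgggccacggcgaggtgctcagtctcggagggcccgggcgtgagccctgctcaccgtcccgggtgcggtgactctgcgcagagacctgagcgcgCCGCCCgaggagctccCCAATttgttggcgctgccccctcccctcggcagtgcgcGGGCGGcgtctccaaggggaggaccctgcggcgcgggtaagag
A CCAAT box was in the windows of Col4a1, Col4a2 and Col5a3, and in 37.4% of all windows, and a GC box in those of Col27a1, Col4a1, Col4a2 and Col5a3, and in 35.7% of all. No TATA box (TATAAA) was in any of the 5, against 13.6% of all windows. The libraries are strand-specific per the labels, but whether the counting used the strand is not given in the sources used here, so reads in the few overlapping bases cannot be assigned.

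The levels of the type IV chains were correlated across libraries, and no difference of their ratio between ages was detected. For the ratio, 0.5 was added to the scaled TPM of each chain, which shrinks large ratios. The ratio of Col4a1 to Col4a2 on this scale averaged 2.15 ± 0.964 in old and 1.94 ± 0.411 in young (SD, n = 12 each). It ranged between 0.615 and 4.48 over all libraries. Its log2 difference was 0.04, with p = 0.875 in an exact permutation test (two-sided, ages exchanged within each time, 46656 arrangements). In basement membranes the usual trimer holds 2 Col4a1 chains for each Col4a2 chain. Without the added 0.5, mean Col4a1 over all libraries was 2.01 times mean Col4a2 in scaled TPM, and 2.02 times by coverage. Across the 24 libraries, log2 values of the chains correlated with Pearson's r of 0.633 (permutation p = 0.00054, adjusted 0.00108) and Spearman's rho of 0.736 (permutation p = 9e-05, adjusted 0.00018), with 100000 permutations within age. Without the 2 libraries farthest from the Col4a1 median, r was 0.580. Within ages r was 0.393 in old and 0.849 in young, and within replicate numbers 0.647 and 0.710. Time of day was not removed from these correlations, so the shared rhythm is part of them. The only other pair that could be tested, Col4a1 with the endothelial scavenger receptor Stab2, had an r of 0.340 (permutation p = 0.119, adjusted 0.119) and a rho of 0.298 (permutation p = 0.188, adjusted 0.188), with r at 0.424 without the 2 farthest libraries, at 0.529 in old and 0.226 in young, and at 0.377 and -0.02 within replicate numbers. With deposited TPM without scaling, the r of that pair was 0.506, with an adjusted permutation p of 0.0178.

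**Figure D3:**
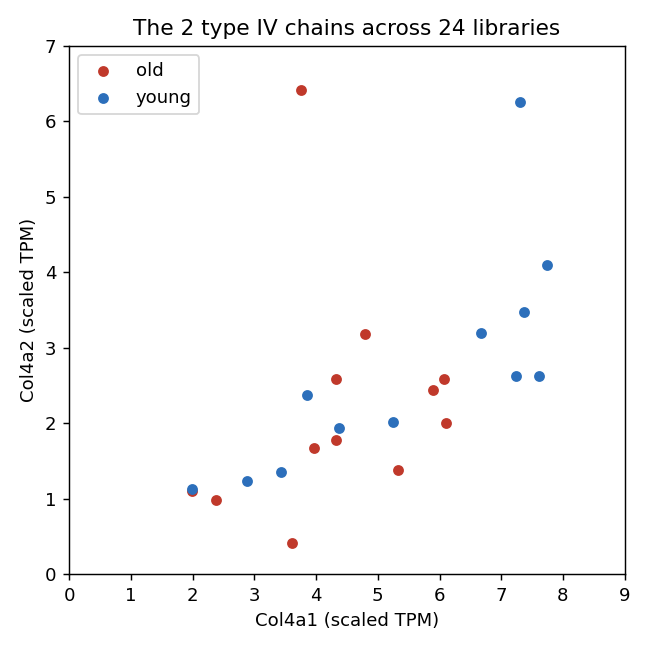
Col4a2 against Col4a1 in scaled TPM, with 1 point per library, red for old and blue for young. Libraries high in Col4a1 tend to be high in Col4a2 (r = 0.633 on the log2 scale), and the old and young points lie in the same band.

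Col5a3 peaked near ZT2 and Col6a1 near ZT8. Col5a3 was in old livers at 3.65 and 6.76 scaled TPM at ZT2, 2.10 and 3.59 at ZT6, 1.55 and 0.960 at ZT10, 2.68 and 0.635 at ZT14, 1.98 and 1.62 at ZT18, and 2.62 and 3.65 at ZT22. In young livers Col5a3 was at 2.47 and 2.43 at ZT2, 4.76 and 2.70 at ZT6, 1.66 and 1.66 at ZT10, 1.13 and 1.23 at ZT14, 1.06 and 1.70 at ZT18, and 1.76 and 3.01 at ZT22. In both ages all libraries of ZT2 were above those of ZT10. The fitted size was log2 1.30 (SE 0.234), a 2.46-fold range, with a peak at ZT2.18 ± 0.687 h and an adjusted p of 0.00106 by limma. Col6a1 was in old livers at 1.31 and 1.92 at ZT2, 1.68 and 1.99 at ZT6, 1.40 and 2.15 at ZT10, 1.64 and 2.03 at ZT14, 1.30 and 1.47 at ZT18, and 0.988 and 1.06 at ZT22. In young livers Col6a1 was at 1.31 and 1.32 at ZT2, 1.51 and 1.84 at ZT6, 2.38 and 1.36 at ZT10, 0.904 and 1.03 at ZT14, 1.11 and 1.05 at ZT18, and 0.924 and 1.35 at ZT22. The 4 libraries of ZT10 were above the 4 of ZT22, the closest pair being young ZT10 replicate 2 and young ZT22 replicate 2. Libraries averaged 102 read equivalents for Col5a3 and 39.7 for Col6a1. Its fitted size was log2 0.53 (SE 0.149), a 1.44-fold range, with a peak at ZT8.01 ± 1.08 h and an adjusted p of 0.0343 by limma. The Col6a1 call was the least firm of the 5: it held in 16 of 24 fits that each left out 1 library, and leaving out young ZT6 replicate 2, ZT10 replicate 1 or ZT22 replicate 1, or old ZT6 replicate 2, ZT10 replicate 2, ZT18 replicate 1 or either ZT22 library ended it (highest adjusted p 0.0749). The calls of the other 4 held in 24 of 24. Without old ZT14 replicate 1 and young ZT18 replicate 2, the size was 1.54 for Col5a3 (adjusted p = 8.71e-05) and 0.54 for Col6a1 (adjusted p = 0.0378), and without all 3 libraries 1.47 (adjusted p = 0.000568) and 0.55 (adjusted p = 0.0442).

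The other 6 tested collagen genes did not pass, with Col18a1 nearest to the threshold and dependent on the libraries fitted. Col18a1 was in old livers at 154 and 198 scaled TPM at ZT2, 160 and 156 at ZT6, 109 and 156 at ZT10, 138 and 127 at ZT14, 122 and 154 at ZT18, and 99.2 and 147 at ZT22. In young livers Col18a1 was at 130.3 and 137 at ZT2, 125 and 173 at ZT6, 171 and 143 at ZT10, 82.6 and 113 at ZT14, 78.3 and 129 at ZT18, and 88.1 and 158 at ZT22. Its fitted peak was at ZT5.21, with a size of log2 0.49 and an adjusted p of 0.0904 by limma. Without young ZT18 replicate 2 the adjusted p was 0.0461, and without young ZT22 replicate 2 it was 0.0396. These were the only passes among 24 fits that each left out 1 library, where adjusted p by limma went up to 0.195. Without old ZT14 replicate 1 and young ZT18 replicate 2 together it was 0.0512, and without all 3 libraries that stood apart 0.075. Of 11 other settings, these included, 1 passed, and adjusted p went up to 0.148. Col1a2 had a size of 0.67, a fitted peak at ZT8.72 and an adjusted p of 0.0948. Col13a1, Col3a1, Col15a1 and Col14a1 had sizes of 0.54, 0.41, 0.20 and 0.18, with adjusted p between 0.456 and 0.860. Fibrillar collagens without Col27a1 summed to 17.5 scaled TPM at ZT2, 15.3 at ZT6, 16.3 at ZT10, 14.1 at ZT14, 10.5 at ZT18 and 13.0 at ZT22, and with Col27a1 to 20.6, 17.5, 19.0, 26.0, 21.4 and 19.0.

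Taken one age at a time, 3 of 11 collagen genes were rhythmic in old, against 8.96% of all genes tested, and 2 of 11 in young, against 10.7%. Col27a1 passed in both. Col4a2 passed in old with a size of log2 1.71 (adjusted p = 0.00993) and had a size of 1.14 in young (adjusted p = 0.0958). Col5a3 passed in old with a size of 1.57 (adjusted p = 0.0105) and had a size of 1.14 in young (adjusted p = 0.0685). Col4a1 had a size of 0.79 in old (adjusted p = 0.255) and passed in young with a size of 1.16 (adjusted p = 0.0499). The Col4a1 call in young held in 6 of 24 fits that left out 1 library, and adjusted p without 1 library went up to 0.145. In old, the Col4a2 call ended without old ZT6 replicate 1 (adjusted p = 0.0565), and the Col5a3 call without old ZT2 replicate 2 or old ZT14 replicate 2 (highest adjusted p 0.0523). Without old ZT14 replicate 1, Col5a3 passed in young too (adjusted p = 0.0235). Without all 3 libraries that stood apart, Col4a1 (size 1.38, adjusted p = 0.0297 by limma) and Col5a3 (size 1.24, adjusted p = 0.0257) passed in young. Col4a2 did not pass there (size 1.27, adjusted p = 0.101). These patterns did not show that rhythms differ between ages. The test of the rhythm difference itself called 0 of 11 collagen genes, also at an unadjusted p under 0.05, against 0% of all genes tested at the adjusted threshold and 3.51% unadjusted by limma.

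No collagen gene passed the comparison of old with young livers over the day. By limma with Benjamini-Hochberg adjustment, 0 of 11 passed, against 1.64% of all genes tested (1.14% higher and 0.498% lower in old), and 0 of 11 were under an unadjusted p of 0.05, against 11.6%. The median log2 difference, old minus young, was 0.11 over the 11 collagen genes and -0.01 over all genes tested. The difference was above 0 for 7 genes and below 0 for Col1a2, Col3a1, Col4a1 and Col4a2, where Col3a1 turned to 0.015 with deposited TPM without scaling, a setting that moved the median of all genes to 0.09. Col1a2 had 0.659, 1.83 and 4.01 scaled TPM as its lowest, median and highest library in old, against 1.72, 1.99 and 5.67 in young. Its ages overlapped, and its log2 difference was -0.30 (95% interval -0.63 to 0.03, adjusted p = 0.503 by limma). Its mean in scaled TPM was lower in old at 5 of 6 times, and at ZT2 it was 1.82 in old and 1.79 in young. Col15a1 had 0.487, 1.26 and 2.13 in old, against 0.187, 0.825 and 2.96 in young, and a log2 difference of 0.36 (interval -0.04 to 0.77, adjusted p = 0.507). Its highest young value was that of young ZT18 replicate 2, the library with pancreatic markers. Without that library and old ZT14 replicate 1 the log2 difference of Col15a1 was 0.44, and without all 3 libraries that stood apart 0.29.

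Intervals for the other collagen genes rest on the spread among these libraries. For type IV, the log2 difference was -0.25 (interval -0.61 to 0.11) for Col4a1 and -0.29 (interval -0.70 to 0.12) for Col4a2. For the abundant Col18a1 it was 0.19 (interval -0.07 to 0.46), and for Col14a1 0.11 (interval -0.18 to 0.40). Col6a1 gave 0.18 (interval -0.05 to 0.41), Col5a3 0.18 (interval -0.19 to 0.55), Col13a1 0.19 (interval -0.30 to 0.69), Col27a1 0.09 (interval -0.26 to 0.43) and Col3a1 -0.09 (interval -0.56 to 0.38). At single times, 0 of 11 passed at any time, where all genes tested passed in 0%, 0%, 0.53%, 0.0408%, 0.0245% and 0.00816% at ZT2 to ZT22. The single-time test with 2 libraries per age had its smallest p for Col15a1 at ZT14 (1.54 and 1.24 in old, 0.187 and 0.355 in young, log2 1.30, adjusted p = 0.486). Its old side is the 2 libraries low in mitochondrial RNA, and its young values rest on 1.92 and 5.13 read equivalents. The test of whether the age difference varied over times called 0 of 11, also at an unadjusted p under 0.05, against 0.0163% of all genes tested adjusted and 3.6% unadjusted.

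**Figure D4:**
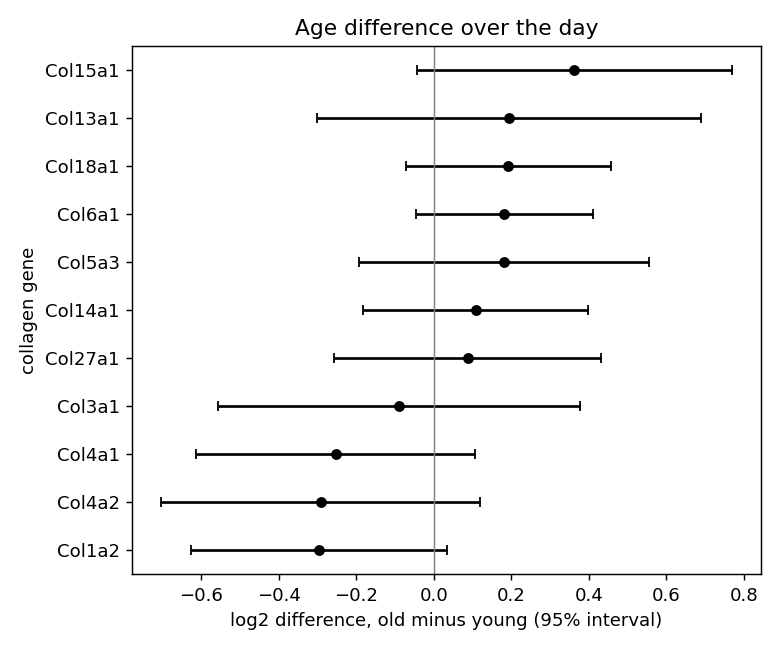
Log2 difference of old minus young over the day for the 11 tested collagen genes, with points for the fitted value and bars for its 95% interval. Every interval includes 0, and the values lie between -0.30 for Col1a2 and 0.36 for Col15a1.

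Of 20 genes that fold and modify collagen chains 14 were tested. None rose or fell in old, where 1.14% of all genes tested rose and 0.498% fell. Of the 14, 5 were rhythmic (23.9% of all genes tested were), each with a fitted peak between ZT12 and ZT24 (12.1% of all). P4ha1 and P4ha2, catalytic subunits of the prolyl 4-hydroxylase that stabilises the triple helix, had sizes of log2 1.32 (peak ZT17.5, adjusted p = 0.0016) and 1.65 (peak ZT17.7, adjusted p = 0.00433). Over the 4 libraries of a time, P4ha1 averaged 1.99 scaled TPM at ZT6 and 7.43 at ZT14, and P4ha2 1.92 at ZT6 and 6.47 at ZT14. ZT14 includes both old libraries low in mitochondrial RNA, and fits without them are not given for these genes. Serpinh1 (Hsp47), the collagen-specific chaperone, had a size of 0.94 (peak ZT21.8, adjusted p = 0.00276), Fkbp14, a prolyl isomerase, 1.02 (peak ZT19.8, adjusted p = 0.0039), and Colgalt1, which adds galactose to hydroxylysine, 0.34 (peak ZT15.1, adjusted p = 0.00986). The fitted peaks of P4ha1 and P4ha2 were within 1 h of that of Col27a1, and those of the type IV chains were not.

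Among 13 genes of procollagen cleavage and cross-linking, 4 were tested and none rose or fell in old. Loxl4, a lysyl oxidase-like cross-linking enzyme, was rhythmic with a size of log2 2.55, a fitted peak at ZT24.0 and an adjusted p of 3.18e-06. It averaged 2.96 scaled TPM at ZT2 and 0.106 at ZT14. Of 17 genes of collagen degradation, 8 were tested, none passed for age, and 2 were rhythmic, a share near the 23.9% of all genes tested. Nearest to the age threshold was Mmp14, at 13.8 ± 2.56 in old and 9.93 ± 2.23 in young (log2 0.46, adjusted p = 0.0894 by limma). Ctsl, the lysosomal protease cathepsin L, had a size of 0.59 (peak ZT4.46, adjusted p = 0.00344), and Timp3, a matrix-bound inhibitor of metalloproteinases, a size of 0.87 (peak ZT13.6, adjusted p = 1.73e-05). Timp1, Timp4 and Fap were listed at 0 in all 24 libraries. The 4 tested collagen receptors of 9 held no age or rhythm call, with the smallest p for age for Lair1, an inhibitory receptor of immune cells (log2 0.21, adjusted p = 0.625), and Itga1, the integrin alpha 1 chain (log2 0.12, adjusted p = 0.904).

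**Figure D5:**
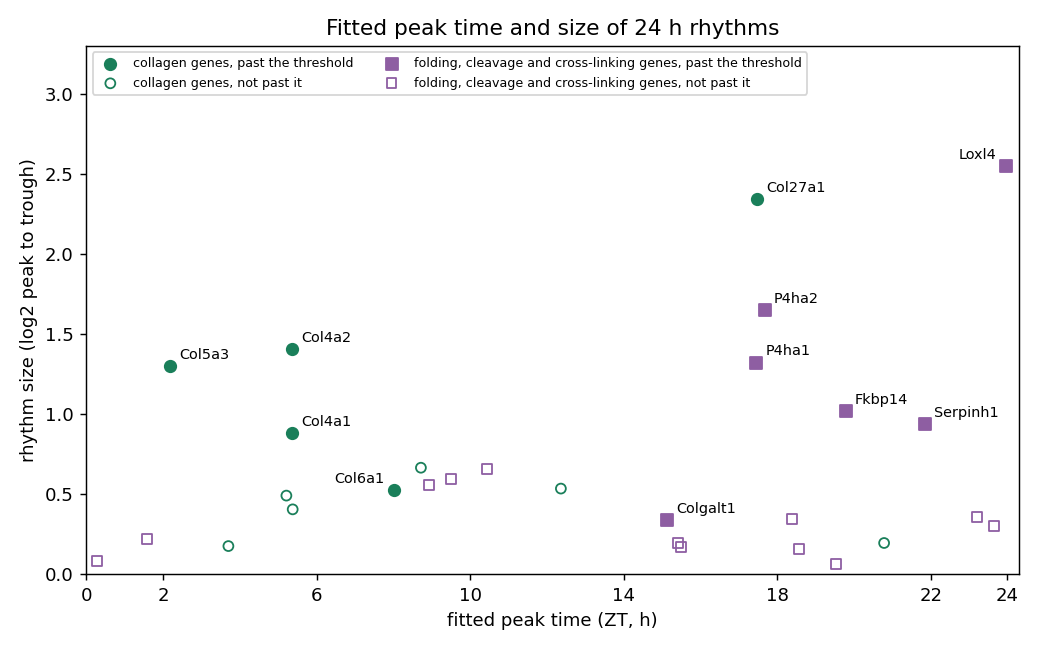
Size of the fitted 24 h rhythm (log2 peak to trough) against fitted peak time for the 11 tested collagen genes (green circles) and the tested genes of folding, cleavage and cross-linking (purple squares), filled where the adjusted p was under 0.05. Filled circles other than Col27a1 lie between ZT2.18 and ZT8.01, whereas all filled squares lie after ZT12.

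Of 17 genes of transforming growth factor beta signalling, a known inducer of collagen transcription, 12 were tested, 1 rose and 0 fell in old, against 1.14% and 0.498% of all genes tested. Ctgf, a matricellular protein induced by that pathway, was at 4.15 ± 1.53 scaled TPM in old and 2.29 ± 0.854 in young (log2 0.72, SE 0.131, adjusted p = 0.00762 by limma). Rhythms passed for 4 of the 12, against 23.9% of all genes tested, namely Ctgf (peak ZT13.3, size log2 0.92), the type II receptor Tgfbr2 (peak ZT11.6, size 0.63), Skil (peak ZT19.0, size 0.84) and Tgif1 (peak ZT2.40, size 0.79), the last 2 being corepressors of the pathway. Of 16 partners of type IV in basement membranes 9 were tested, none rose or fell in old, and 2 of the 9 were rhythmic, a share near that of all genes tested. These were Lama3, a laminin chain (peak ZT17.3, size 0.66, adjusted p = 0.0182), and Nid2, a nidogen (peak ZT22.8, size 1.19, adjusted p = 0.000252). Neither peaked with Col4a1 and Col4a2. Of the tested partners that did not pass, Pxdn, Nid1, Lamc1, Hspg2 and Agrn had fitted peaks between ZT2.19 and ZT7.55. Those of Lama4 and Lamb1 were at ZT12.8 and ZT17.4. Of 19 interstitial matrix partners 9 were tested, and Efemp1 (fibulin-3) rose in old, at 9.29 ± 2.81 in old and 5.93 ± 1.14 in young (log2 0.58, adjusted p = 0.0291), with no rhythm call in the list.

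Markers of the cells that could supply collagen mRNA are given beside these results, and their part in them was not tested. Among all genes tested, 1.14% rose in old, 0.498% fell and 23.9% were rhythmic. Of 14 stellate cell markers 13 were tested, and Cygb, the stellate cell globin, rose in old, at 5.73 ± 1.32 in old and 3.68 ± 0.851 in young (log2 0.58, adjusted p = 0.00881). Cygb (peak ZT10.8, adjusted p = 0.0234) and Ngfr (peak ZT1.76, adjusted p = 0.000313) were rhythmic, 2 of the 13. Activated myofibroblast markers, 4 tested of 9, held no call: Postn was at 3.91 ± 1.28 in old and 6.15 ± 2.46 in young (log2 -0.58, adjusted p = 0.102), and Tagln at 7.87 ± 1.93 in old and 6.34 ± 1.51 in young (log2 0.29, adjusted p = 0.349). Portal fibroblast markers, 4 tested of 9, held none either, with Cd34 at log2 0.32 (adjusted p = 0.307) and Entpd2 at 0.17 (adjusted p = 0.846). Of 10 sinusoidal endothelium markers none passed for age, and Oit3 (peak ZT3.88, size log2 0.46) and Gpr182 (peak ZT19.8, size 0.48) were rhythmic. Nearest to the age threshold was Lyve1, at 3.99 ± 1.46 in old and 6.36 ± 1.47 in young (log2 -0.66, adjusted p = 0.0649 by limma). Marco rose among 6 Kupffer cell markers (28.5 ± 14.1 in old, 6.24 ± 2.46 in young, log2 2.01, adjusted p = 1.2e-05), where Cd5l was rhythmic (peak ZT9.31), and Sox9 rose among 2 tested cholangiocyte markers (2.29 ± 0.825 in old, 1.56 ± 0.701 in young, log2 0.45, adjusted p = 0.0305) and was rhythmic (peak ZT22.7). Hepatocyte markers held no call, with the smallest p for age for Ttr (log2 -0.12, adjusted p = 0.591) and Serpina1a (log2 0.18, adjusted p = 0.682). Pancreatic markers held no call either, with the smallest p for age for Ctrb1 (adjusted p = 0.831) and Pnlip (adjusted p = 0.836). Ctrb1 and Pnlip were each at 0 in 22 libraries and passed the filter only through young ZT18 replicate 2. Their tests rest on that library and cannot decide on age. None of 4 mesothelial markers passed the filter, and of 4 adipocyte markers Cfd alone was tested (log2 0.83, adjusted p = 0.686), while Plin1 and Lep were listed at 0 in all libraries.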

How the data were processed

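Liver mRNA was selected with oligo-dT and read from 1 end over 50 bases with strand kept, per the labels. Per the submitters' processing notes, HISAT2, StringTie and GRCm38 were used; versions and the annotation release are not given in the sources used here. The authors scaled the deposited TPM of each library to a total of 1000000. The deposited FPKM values are scaled for depth and length by the authors. The deposited coverage values are mean read coverage per base of a gene. Read numbers given for genes are coverage times exon length (GENCODE M21) over 50 bases; 43.4% of collagen values came out within 0.02 of a whole read, so these are read equivalents and no count test was run. Depth is the largest coverage to FPKM ratio of a library.

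Entries with the same identifier were summed. Median-of-ratios factors, taken from 13270 genes detected in each of the 24 libraries, scaled the TPM. Of the genes, those averaging 1 TPM or more entered limma 3.58.1 in R 4.3.3 on log2(scaled TPM + 0.5), with an intensity trend in its empirical Bayes step. Fold values on this scale understate changes of low genes. Age differences came from a model with 1 mean per age and time (12 residual degrees of freedom), and rhythms from a 24 h cosine and sine per age (18 residual degrees of freedom), both fitted on all 12261 genes, with Benjamini-Hochberg adjustment over them and a threshold of 0.05. Scripts were tested on simulated data. Ratios and correlations were tested by permutation (scipy 1.17.1). Every collagen gene of at least 1 TPM was named; those below were named where they passed 1 TPM in a library or were listed at 0 in all. In other lists, genes past the threshold for age or rhythm were named, otherwise up to 2 with the smallest p for age. Some further genes, among them Lyve1, Mmp14 and Rgs5, were named after their values were seen. The collagen genes, the lists and the tests were chosen with earlier results of these data known. Of the list entries, 6 matched by an older symbol. Alternatives were unscaled deposited TPM, unscaled deposited FPKM, quantile normalization, a pseudocount of 0.1 or 1, leaving out the filter, a 5 TPM filter, a replicate term, leaving out each library, leaving out old ZT14 replicate 1 and young ZT18 replicate 2, and, chosen after seeing the data, leaving out these and old ZT14 replicate 2 (age then averaged over the other 5 times) and coverage in place of TPM. Promoter sequences are from RefSeq (GRCm38.p6).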

Additional observations from a re-analysis of the deposited data

How the results depend on the processing

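No collagen gene changed with age, at a single time, in the variation of the age difference or in its rhythm between ages under any alternative, except that without a filter 1 of 34 genes, Col25a1, was higher in old (log2 0.33, adjusted p = 0.0437). The count of rhythmic collagen genes over both ages was 5, between 4 and 6 without 1 library, and 2 of the 5 genes left with a filter at 5 TPM. In young the count of 2 was 1 with deposited TPM, deposited FPKM, a pseudocount of 0.1 or no filter, and 1 to 2 without 1 library. It was 3 without old ZT14 replicate 1 and young ZT18 replicate 2, and also 3 without all 3 libraries that stood apart. In old the count of 3 was 5 with no filter and 1 with a filter at 5 TPM, where fewer collagen genes are tested. With coverage in place of TPM the count over both ages was 5, with adjusted p of 0.00162 for Col4a1 and 0.000216 for Col4a2. The correlated pairs numbered 1, and 2 with deposited TPM without scaling; the cause was not tested. The age difference of Col3a1 turned to 0.015 with deposited TPM without scaling and ranged between -0.23 and 0.052 without 1 library, and that of Col27a1 between -0.020 and 0.19. The fitted peak of Col15a1 moved by over 6 h without old ZT14 replicate 1 and young ZT18 replicate 2 (size 0.18) and without all 3 libraries that stood apart (size 0.10), and its size ranged between 0.15 and 0.37 without 1 library. With deposited TPM, 225 genes of the whole set were higher in old and 38 lower, against 140 and 61.

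Replicate numbers were not taken as pairs, because the labels do not say what they mark. Differences between replicates did correlate over 0.1 in 52 of 66 pairs of groups, with a median of 0.186 and a lowest value of -0.158. Libraries of the same number thus shared some deviation, which the main fits leave in the spread. With the replicate block, 6 collagen genes were rhythmic, Col18a1 being added (size 0.49, adjusted p = 0.0258), and 0 changed with age. The whole set then gave 220 genes higher in old and 133 lower, against 140 and 61, and 3685 rhythmic genes, against 2935. Low members are limited by depth, with a mean of 13.9 read equivalents per library for Col15a1 and 17.9 for Col1a1. Intervals cover the spread between libraries.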

Other observations

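2 low collagen genes not described above were tested without a filter. Col25a1, a transmembrane collagen best known from neurons, averaged 0.281 ± 0.191 scaled TPM in old and 0.110 ± 0.0626 in young (SD, n = 12 each), on a mean of 10.3 read equivalents per library. Col6a6, a type VI chain, averaged 0.0433 ± 0.0502 in old and 0.0087 ± 0.0158 in young and passed for rhythm over both ages there (size log2 0.18, adjusted p = 0.0116 by limma), on a mean of 1.58 read equivalents per library. Both were named after their values were seen.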
